A study of Homo sapiens with 20 samples.

Results

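The genes described here are 10 classical targets and components of the integrated stress response, ATF4, ASNS, DDIT3, DDIT4, TRIB3, CHAC1, SESN2, PSAT1, PHGDH and ATF3, out of 60232 genes in the expression table. They were chosen by name, as a pathway list, with earlier results of these data known. All 10 were found under their own symbol with the same start and end as in GENCODE v44, and all 10 passed the filter on low values (a sum above 10 over the 20 libraries). Gene positions below are those of the table, on GRCh38. The samples are 5 gastric cancer cell lines, each treated for 72 h with the vehicle DMSO or with decitabine (DCB), an inhibitor of DNA methyltransferases, with 2 libraries per line and treatment. YCCEL1 and SNU719 carry Epstein-Barr virus (EBV+) and have the CpG island methylator phenotype (CIMP+), AGS is EBV- and CIMP+, and SNU16 and HGC27 are EBV- and CIMP-. Each line is a single culture model of 1 tumour, and the labels give EMEM with serum for YCCEL1, EMEM with added glutamine and non-essential amino acids for HGC27, and RPMI with serum for SNU719, AGS and SNU16, while the paper's methods give RPMI with serum for every line they list. If the labels hold, line and medium cannot be told apart for YCCEL1 and HGC27, and the other 3 lines share a medium. The labels name the remaining EBV- line HGC27, whereas the paper's methods name MKN74 in its place and its results use both names. The name of the labels is used here, and the medium that the paper's methods give is not stated there for HGC27.

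In the integrated stress response, kinases that sense amino acid shortage, unfolded protein in the endoplasmic reticulum, double-stranded RNA or haem shortage and mitochondrial stress phosphorylate the translation factor eIF2. General translation then slows while the mRNA of the transcription factor ATF4 is translated more, so that ATF4 is governed largely at the protein level. ATF4, often paired with a C/EBP factor, activates genes of amino acid uptake and synthesis, tRNA charging and redox control, together with the death-linked factors DDIT3 (CHOP) and TRIB3, at composite elements known as C/EBP-ATF response elements. The values described below are RNA levels, and neither ATF4 protein nor eIF2 phosphorylation was measured in these files.

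Promoter windows of all 10 genes were found in RefSeq (GRCh38.p14). Each window runs from 250 bases before to 50 bases after an annotated start, and several genes have more than 1. The core of the C/EBP-ATF response element was searched as TGATGNAA on both strands (TTNCATCA on the other strand). In 1 window each, 3 of the 10 genes held it, ASNS, CHAC1 and ATF3. ASNS and ATF3 each have another window without it. Of all 35116 windows, 1270 (3.62%) held it, a share of windows and not of genes. In ASNS it lay 68 to 61 bases before the start, in CHAC1 it lay on the other strand 209 to 202 bases before the start, and in ATF3 it lay 191 to 184 bases before the start. A match of letters is a description of the window and not a measured site. Of the 3 genes, ATF3 is not printed. The 250 bases before the start of ASNS (chr7:97872409-97872658, minus strand) and CHAC1 (chr15:40953221-40953470, plus strand) are given as examples, with the element in capitals.
ASNS: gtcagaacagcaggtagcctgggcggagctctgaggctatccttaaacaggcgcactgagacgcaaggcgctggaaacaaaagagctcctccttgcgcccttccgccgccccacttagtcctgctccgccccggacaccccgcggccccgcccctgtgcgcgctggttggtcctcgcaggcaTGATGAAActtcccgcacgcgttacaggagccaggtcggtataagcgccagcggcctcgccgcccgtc
CHAC1: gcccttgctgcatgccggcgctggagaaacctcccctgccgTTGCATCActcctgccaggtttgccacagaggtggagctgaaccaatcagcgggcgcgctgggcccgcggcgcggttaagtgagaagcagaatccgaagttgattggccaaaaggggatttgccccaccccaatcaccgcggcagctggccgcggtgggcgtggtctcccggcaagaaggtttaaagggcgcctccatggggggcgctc

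The next pair is given because TRIB3 and PHGDH were listed at or near 0 in some untreated lines and at 592 or more per library in others, and since CpG sites are where DCB lowers DNA methylation. ASNS was also low in untreated SNU719 (6.66 and 5.48) against a mean of 4025 in SNU16, and its CpG sites are not marked here. The 250 bases before 1 RefSeq start of TRIB3 (chr20:381045-381294, plus strand) and of PHGDH (chr1:119711684-119711933, plus strand) follow, with each CpG in capitals.
TRIB3: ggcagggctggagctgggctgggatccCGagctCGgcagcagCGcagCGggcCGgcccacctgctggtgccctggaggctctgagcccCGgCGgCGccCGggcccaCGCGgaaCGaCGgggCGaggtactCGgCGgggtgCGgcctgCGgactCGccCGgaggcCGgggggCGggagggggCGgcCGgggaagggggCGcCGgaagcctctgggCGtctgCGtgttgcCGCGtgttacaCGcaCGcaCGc
PHGDH: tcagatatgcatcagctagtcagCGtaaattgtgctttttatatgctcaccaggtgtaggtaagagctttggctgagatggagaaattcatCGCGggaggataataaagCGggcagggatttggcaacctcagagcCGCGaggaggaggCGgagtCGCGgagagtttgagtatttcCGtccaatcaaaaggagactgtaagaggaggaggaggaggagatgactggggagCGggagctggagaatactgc

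The printed stretch of TRIB3 held 33 CpG sites and that of PHGDH 11. Over the full 300 bases, the TRIB3 window held 38, more than 90.1% of all windows, and the PHGDH window held 15, near the median of 14 over all windows. The ATF3 windows were the poorest of the 10 genes, with 4 and 1. Methylation of these windows was not analysed here.

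Values are normalized read counts as the authors deposited them, and they sum to between 7764407 and 9321014 per library. Differences were tested with limma on log2(value + 1) over 27350 genes, and a call is a Benjamini-Hochberg adjusted p below 0.05. Fold changes are on that scale with 1 added. Whether both libraries of a group were grown as separate cultures is not stated in the labels or the paper, and the p-values therefore reflect library-to-library spread, which may be technical. The epithelial markers EPCAM, CDH1, KRT8, KRT18 and KRT19 summed to between 31499 and 101130 per library in YCCEL1, SNU719, AGS and SNU16, and to between 115 and 609 in HGC27. The fibroblast markers COL1A1, COL3A1, DCN and PDGFRB summed to between 43048 and 45337 in HGC27 and to at most 1965 elsewhere. Of the 4 blood cell markers, LYZ, which gastric epithelium can also make, gave nearly all of a sum of 15942 to 71546 per library in YCCEL1, SNU719 and AGS, while PTPRC and CD3E were near 0 in all lines, with means of at most 6.87.

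The integrated stress response genes started from very different levels in the 5 untreated lines, and all 10 differed among the lines (limma F test; background 67.7% of all genes). SNU719 had the lowest DMSO mean for 9 of the 10, the exception being PHGDH, which was lowest in YCCEL1. Of 40 pairs of lines that neighbour each other in a gene's order of levels, 30 differed past the threshold. Over all genes, the share that differed between untreated HGC27 and another line was 46.5% for AGS, 47.5% for SNU719, 48.7% for SNU16 and 49.1% for YCCEL1. It was 30.2% between YCCEL1 and SNU719, 33.1% between SNU719 and AGS, 33.3% between YCCEL1 and AGS, and 37.5%, 38% and 39.7% between SNU16 and YCCEL1, SNU719 and AGS. The spread was narrow for ATF4, from 3055 ± 40.7 (SD, n = 2) in SNU719 to 8799 ± 185 in YCCEL1, and for SESN2, from 423 ± 8.86 to 1464 ± 13.0. It was wide for ASNS, which ran from 6.07 ± 0.832 in SNU719 to 4025 ± 236 in SNU16. TRIB3 was listed at 0 in both SNU719 libraries, at 1.30 ± 0.108 in YCCEL1 and 3.01 ± 1.83 in AGS, against 1234 ± 29.6 in HGC27 and 2954 ± 14.0 in SNU16. PHGDH was at 0.292 ± 0.412 in YCCEL1 and 3.90 ± 3.29 in AGS, against 5946 ± 168 in HGC27. These levels are for bulk cultures, in which fewer expressing cells and less RNA per cell cannot be told apart.

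The neighbours that did not pass the threshold were HGC27, AGS and SNU16 for ASNS, YCCEL1 and AGS for TRIB3 and for CHAC1, SNU719 and HGC27 and likewise AGS and SNU16 for SESN2, SNU16 and HGC27 for PHGDH, and the 4 lines above SNU719 for ATF3. Of the pairs that passed, CHAC1 between YCCEL1 and HGC27 was lost without either YCCEL1 library or HGC27 replicate 2 (adjusted p 0.11 to 0.17) and SESN2 between AGS and HGC27 without HGC27 replicate 2 or AGS replicate 1 (0.064 and 0.051), while TRIB3 between YCCEL1 and AGS passed without AGS replicate 1 (0.0053). DDIT4 between SNU719 and YCCEL1 was lost under upper-quartile rescaling (0.25) and without the trend (0.087), and TRIB3 between SNU719 and YCCEL1 with 5 added to each value (0.31). That rescaling also ended the calls for CHAC1 between YCCEL1 and HGC27 (0.21) and SESN2 between AGS and HGC27 (0.21). The CHAC1 call between YCCEL1 and HGC27 was lost without the trend too (0.056). CHAC1 between YCCEL1 and AGS passed under 7 alternatives (0.028 to 0.049). YCCEL1 and SNU16, the top 2 lines for ATF4, differed by only 0.094 on the log2 scale (adjusted p = 0.031), a call that was lost without YCCEL1 replicate 1 or either SNU16 replicate (adjusted p 0.072 to 0.2), without the trend (0.51) and after upper-quartile rescaling. With untreated EBV+ lines set against untreated EBV- lines, 8 members were lower (background 25.6%) and 2 were higher (background 21.1%), the 2 being DDIT3 at 0.46 (SE 0.067) and SESN2 at 0.60 (SE 0.056) on the log2 scale. The EBV+ lines lay at opposite ends for both, with the highest means in YCCEL1 (1051 and 1464) and the lowest in SNU719 (113 and 423). ATF4 and ATF3, among the 8, also had their highest mean in YCCEL1 and their lowest in SNU719. With 2 EBV+ and 3 EBV- lines this contrast compares those lines, and p-values rest on the spread between libraries, not between lines.

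**Figure D1:**
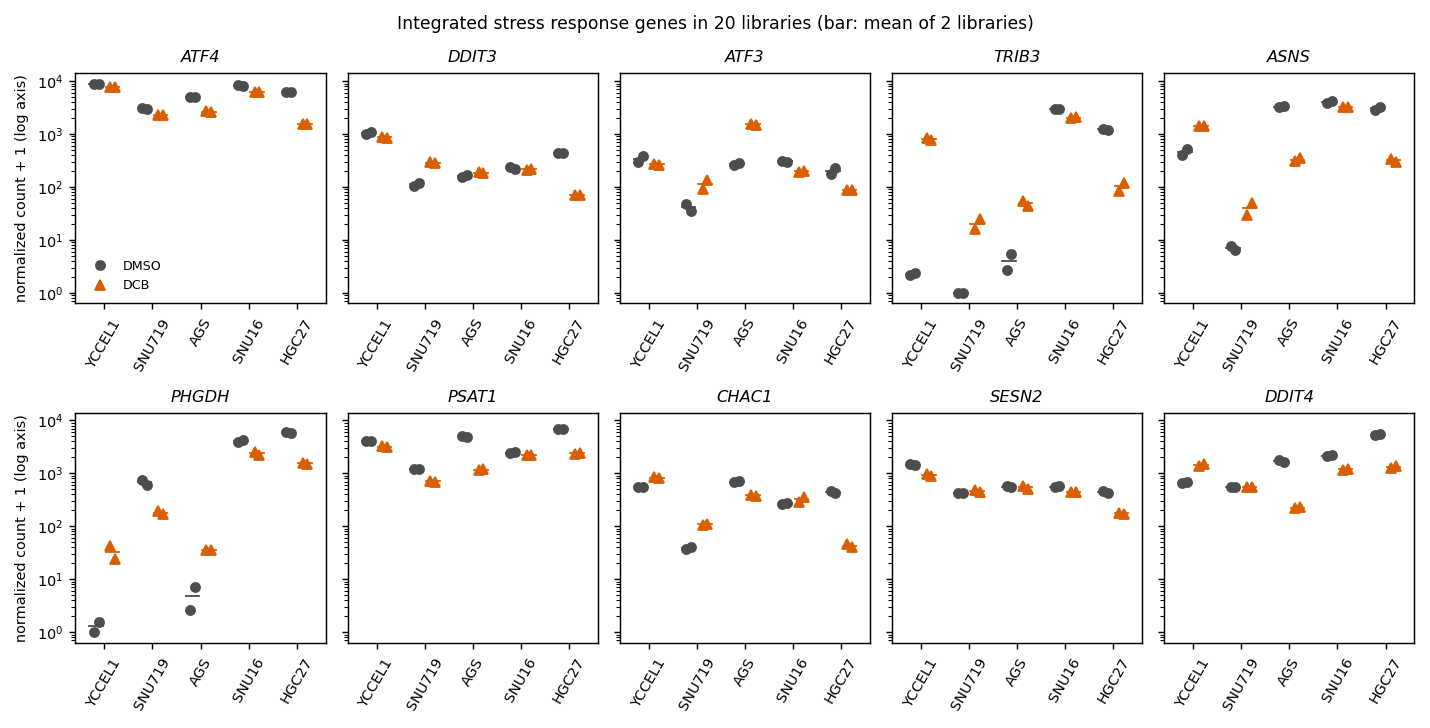
Normalized count plus 1 (log axis) of the 10 genes in each of the 20 libraries, by line, with DMSO as grey circles, DCB as orange triangles and a bar at the mean of 2 libraries. In HGC27 all 10 genes were called lower with DCB (background 9.03% of all genes). TRIB3 and PHGDH lie near the floor of the axis in DMSO-treated YCCEL1 and AGS and higher with DCB.

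ATF4 (ENSG00000128272.16, chr22:39519695-39522683, plus strand), the transcription factor of the response, had lower RNA after DCB in all 5 lines as deposited, a direction that upper-quartile rescaling turned in YCCEL1. The change ran from slight in YCCEL1 to 4.04-fold lower in HGC27. In HGC27 it was 6185 and 6102 with DMSO and 1525 and 1518 with DCB (log2 fold change -2.01, SE 0.032, adjusted p = 3e-14). In AGS it was 4998 and 5038 with DMSO and 2719 and 2567 with DCB (log2 fold change -0.93, SE 0.032, adjusted p = 2e-10). No DCB library of these lines reached a DMSO library. The fall was smaller in SNU16, from 8293 and 8195 to 6139 and 6142 (log2 fold change -0.42, SE 0.032, adjusted p = 1.8e-06). In SNU719 it went from 3084 and 3026 to 2336 and 2312 (log2 fold change -0.39, SE 0.032, adjusted p = 9.6e-07), a call that ended under upper-quartile rescaling (-0.012, adjusted p = 0.93). In YCCEL1 it was 8929.7 and 8668 with DMSO and 7794 and 7742 with DCB (log2 fold change -0.18, SE 0.032, adjusted p = 0.00098), a direction that turned to 0.20 (adjusted p = 0.0089) under upper-quartile rescaling and a call that ended without the mean-variance trend (adjusted p = 0.22) or with YCCEL1 alone in the fit (0.077). That rescaling moved the median log2 fold change of all genes in YCCEL1 from 0.094 to 0.43. Relative to that median, ATF4 stood at -0.27 in YCCEL1 as deposited and at -0.23 after it. Over the 5 lines ATF4 fell (log2 fold change -0.79, SE 0.16, adjusted p = 0.0014). That fit counts the libraries of a line as independent, so its p-value does not measure the spread between lines.

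DDIT3 (ENSG00000175197.12, chr12:57516588-57521737, minus strand), which encodes the transcription factor CHOP that is linked to stress-induced cell death, fell in HGC27, rose in SNU719 and passed in no other line as deposited. In HGC27 it went from 436 and 435 to 68.5 and 68.1, 6.30-fold lower (log2 fold change -2.66, SE 0.10, adjusted p = 3e-10). In SNU719 it went from 105 and 120.3 to 299 and 277 (log2 fold change 1.35, SE 0.10, adjusted p = 6e-07). These libraries did not overlap in either line. YCCEL1, the line with the highest level, had 1022 and 1080.1 with DMSO and 864 and 858 with DCB (adjusted p = 0.066), which passed on genes with a sum above 200 (0.044) and turned direction under upper-quartile rescaling (0.093, adjusted p = 0.58). AGS had 151 and 167 with DMSO and 187 and 181 with DCB (adjusted p = 0.16), a difference that passed under that rescaling (0.54, adjusted p = 0.0013). SNU16 had 237 and 215 with DMSO and 209 and 222 with DCB (adjusted p = 0.84).

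ATF3 (ENSG00000162772.17, chr1:212565334-212620777, plus strand), an immediate stress-induced factor of the same bZIP class, was the member with the largest rise in AGS among those well above 0 before treatment. There it rose from 257 and 288 to 1526 and 1511, 5.57-fold higher (log2 fold change 2.48, SE 0.20, adjusted p = 6.4e-07). In SNU719 it rose from 46.7 and 33.9 to 89.6 and 135 (log2 fold change 1.44, SE 0.20, adjusted p = 0.00014), a call lost with SNU719 alone in the fit (adjusted p = 0.098). HGC27 went the other way, from 177 and 224 to 85.5 and 86.2 (log2 fold change -1.20, SE 0.20, adjusted p = 0.00053). The other two lines had lower values with DCB that did not pass, 310.5 and 295 with DMSO and 188 and 203 with DCB in SNU16 (adjusted p = 0.084) and 291 and 386 with DMSO and 268 and 263 with DCB in YCCEL1 (adjusted p = 0.29). The SNU16 value passed without either SNU719 DCB library (adjusted p = 0.049).

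TRIB3 (ENSG00000101255.11, chr20:362835-397559, plus strand), a pseudokinase induced by ATF4 and CHOP, rose from near absence in the 3 CIMP+ lines and fell in HGC27. In YCCEL1 it went from 1.22 and 1.37 to 834 and 757 (adjusted p = 2.3e-10). The log2 fold change there was 8.44 with 1 added to each value and 6.99 with 5 added, since the untreated level is close to 0. In SNU719 both untreated libraries list TRIB3 at 0 and those with DCB list it at 14.8 and 23.9 (adjusted p = 2.1e-07), so no fold is given. AGS went from 1.72 and 4.31 to 54.2 and 42.6, with log2 fold changes of 3.69 with 1 added and 2.75 with 5 added (adjusted p = 5.3e-07 with 1 added). In each of these lines both DCB libraries lay above both DMSO libraries, and YCCEL1 reached by far the highest level among them. HGC27 fell from 1255 and 1213 to 83.2 and 120.4, 12.2-fold lower (log2 fold change -3.61, SE 0.29, adjusted p = 6.7e-07). In SNU16 the values were 2944 and 2964 with DMSO and 2012 and 2056 with DCB (log2 fold change -0.54, SE 0.29, adjusted p = 0.37). They do not overlap, and the difference passed with SNU16 alone in the fit (adjusted p = 0.024).

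ASNS (ENSG00000070669.17, chr7:97851677-97872542, minus strand), asparagine synthetase, changed strongly in 4 lines, upward in both EBV+ lines and downward in AGS and HGC27. It fell in AGS from 3256 and 3330.1 to 302 and 344, 10.2-fold lower (log2 fold change -3.35, SE 0.19, adjusted p = 2e-08). It fell in HGC27 from 2901 and 3180.4 to 333 and 301, 9.57-fold lower (log2 fold change -3.26, SE 0.19, adjusted p = 2.3e-08). Untreated AGS, HGC27 and SNU16 had shared a high level, and SNU16 was 3859 and 4192 with DMSO and 3198 and 3191 with DCB (log2 fold change -0.33, SE 0.19, adjusted p = 0.4), a difference without overlap that did not pass. It rose in YCCEL1 from 398 and 510.4 to 1429 and 1397 (log2 fold change 1.65, SE 0.19, adjusted p = 2.7e-05). It rose in SNU719 from 6.66 and 5.48 to 28.2 and 48.9 (log2 fold change 2.44, SE 0.19, adjusted p = 7.2e-07), a call lost with SNU719 alone in the fit (adjusted p = 0.064). Even so, the DCB level in SNU719 remained far below that of any other line.

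PHGDH (ENSG00000092621.13, chr1:119648411-119744218, plus strand), the first enzyme of serine synthesis from glycolysis, rose from near 0 in YCCEL1 and AGS and fell in SNU719 and HGC27. In YCCEL1 it went from 0 and 0.583 to 41.4 and 23.1 (adjusted p = 8.3e-07) and in AGS from 1.57 and 6.23 to 34.3 and 35.3 (adjusted p = 3.3e-05). The log2 fold changes were 4.67 and 3.05 with 1 added, and 2.77 and 2.21 with 5 added. With AGS alone in the fit the AGS call was lost (adjusted p = 0.093). HGC27 fell from 6065 and 5827 to 1581 and 1499, 3.86-fold lower (log2 fold change -1.95, SE 0.37, adjusted p = 0.0016). SNU719, the CIMP+ line that expressed PHGDH before treatment, fell from 751 and 592 to 189.7 and 167 (log2 fold change -1.90, SE 0.37, adjusted p = 0.0022). In SNU16 the values were 3956 and 4263 with DMSO and 2549 and 2252 with DCB (log2 fold change -0.78, SE 0.37, adjusted p = 0.29), with no overlap between treatments.

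PSAT1 (ENSG00000135069.14, chr9:78297125-78330093, plus strand), the next enzyme of serine synthesis, was expressed in every line and was lower with DCB in all 5 as deposited, though not in YCCEL1 and SNU16 after upper-quartile rescaling. The fall was 4.25-fold in AGS and 2.84-fold in HGC27. PSAT1 in AGS fell from 5043 and 4884 to 1137 and 1195 (log2 fold change -2.09, SE 0.041, adjusted p = 8.1e-13) and HGC27 from 6918 and 6769 to 2364 and 2459.9 (log2 fold change -1.50, SE 0.041, adjusted p = 6.8e-12). SNU719 fell from 1214 and 1201 to 709 and 698 (log2 fold change -0.78, SE 0.041, adjusted p = 1.9e-08). PSAT1 thus fell in AGS while PHGDH, one step before it, rose from near 0. YCCEL1 had 4020.0 and 4047 with DMSO and 3241 and 3107 with DCB (log2 fold change -0.35, SE 0.041, adjusted p = 3.1e-05), and under upper-quartile rescaling the value was 0.034 (adjusted p = 0.72). SNU16 had 2446 and 2484 with DMSO and 2197 and 2189.6 with DCB (log2 fold change -0.17, SE 0.041, adjusted p = 0.023), a direction that turned to 0.025 under upper-quartile rescaling and a call that was lost without any 1 of the 4 SNU16 libraries (adjusted p 0.074 to 0.12) and with the replicate number as a block (0.1).

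CHAC1 (ENSG00000128965.13, chr15:40952962-40956512, plus strand), an enzyme that degrades glutathione, rose in both EBV+ lines and fell in AGS and HGC27, the same split by direction as ASNS. HGC27 went from 466 and 427 to 45.1 and 38.9, 10.4-fold lower (log2 fold change -3.38, SE 0.12, adjusted p = 9.4e-11), and AGS from 694 and 700.1 to 389 and 374 (log2 fold change -0.87, SE 0.12, adjusted p = 8.1e-05). SNU719 rose from 36.7 and 39.2 to 104 and 110.1 (log2 fold change 1.47, SE 0.12, adjusted p = 9.1e-07) and YCCEL1 from 559 and 557 to 847 and 814 (log2 fold change 0.57, SE 0.12, adjusted p = 0.003). Libraries of the 2 treatments did not overlap in these 4 lines. SNU16 had 264 and 271 with DMSO and 287 and 360.1 with DCB (adjusted p = 0.25), which passed under upper-quartile rescaling (0.46, adjusted p = 0.036). ASNS and CHAC1 are the members printed above for the C/EBP-ATF element. ATF3 holds it too, and it rose in SNU719 and fell in HGC27 as they did. Unlike them, ATF3 rose in AGS and did not pass in YCCEL1.

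SESN2 (ENSG00000130766.5, chr1:28259518-28282491, plus strand) and DDIT4 (ENSG00000168209.6, chr10:72273919-72276036, plus strand), which both restrain the growth kinase mTORC1, differed in how widely they moved. SESN2 fell in HGC27 from 469 and 423 to 181 and 169 (log2 fold change -1.34, SE 0.086, adjusted p = 6e-08) and in YCCEL1 from 1474 and 1455 to 975 and 905 (log2 fold change -0.64, SE 0.086, adjusted p = 0.00011), the second call ending under upper-quartile rescaling (adjusted p = 0.055). SNU16 had 544 and 575 with DMSO and 441 and 443 with DCB (log2 fold change -0.34, SE 0.086, adjusted p = 0.031), a call lost without any 1 of the 4 SNU16 libraries (adjusted p 0.075 to 0.17), with the replicate block (0.063) and under upper-quartile rescaling (0.43). SESN2 was 416 and 429 with DMSO and 481 and 443 with DCB in SNU719 and 573 and 542 with DMSO and 581 and 515 with DCB in AGS, and neither passed as deposited. After upper-quartile rescaling both were higher, by 0.51 in SNU719 (adjusted p = 0.001) and 0.30 in AGS (0.025). DDIT4 spanned a wider range. It fell in AGS from 1774 and 1633 to 219 and 227, 7.60-fold lower (log2 fold change -2.93, SE 0.062, adjusted p = 1.6e-12), and in HGC27 from 5246 and 5422 to 1274 and 1364 (log2 fold change -2.02, SE 0.062, adjusted p = 2.8e-11). SNU16 fell from 2129 and 2193 to 1173 and 1232 (log2 fold change -0.85, SE 0.062, adjusted p = 1.5e-06). As deposited YCCEL1 alone rose, from 657 and 670.3 to 1374 and 1488, 2.15-fold higher (log2 fold change 1.11, SE 0.062, adjusted p = 2.4e-08). The SNU719 libraries lay within a few counts of each other, at 557 and 557 with DMSO and 553 and 562 with DCB (adjusted p = 1), and under upper-quartile rescaling DDIT4 was higher there (0.38, adjusted p = 0.0029).

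Counted by line as deposited, the response of the 10 genes was uniform in HGC27 and split in YCCEL1, SNU719 and AGS, while every call in SNU16 was a fall. In HGC27 all 10 fell (background 9.03% of genes lower and 14.7% higher), with a median log2 fold change of -2.01 against 0.037 over all genes, and this count was the same under every scaling and without any 1 library. In AGS 3 rose (background 18.5%) and 5 fell (background 9.13%), with a median of -0.45 against 0.12 over all genes. In YCCEL1 5 rose (background 14.6%) and 3 fell (background 6.93%), with a median of 0.20 against 0.094. In SNU719 5 rose (background 13.5%) and 3 fell (background 7.64%). SNU16 was the least affected line in all genes, with 4.5% called higher and 2.34% called lower, and 4 members fell there (median -0.38 against 0.013) and 0 rose (1 higher at an unadjusted p below 0.05 in limma). Without any 1 of the 4 SNU16 libraries that count was 2, namely ATF4 and DDIT4. Over the 5 lines 4 members fell, ATF4, DDIT4, SESN2 and PSAT1 (background 6.94%), and none rose (background 17.9%). At an unadjusted p below 0.05, limma gave 1 higher and 4 lower. This fit over the 5 lines sets the effect against the spread of lines and libraries together. It counts the libraries of a line as independent, so its p-values do not measure the spread between lines. As the mean of the 5 line effects against the spread between libraries alone, 3 were higher (background 27.5%) and 7 lower (background 11.8%).

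Upper-quartile rescaling brings the upper quartile of each library's values above 0 to a common value. In every line more genes were above 0 with DCB, in SNU719 26101 and 27026 against 22348 and 22670 with DMSO. The factors of this rescaling in SNU719 were 0.843 and 0.801 with DCB against 1.08 and 1.06 with DMSO. Those of median-of-ratios were 1.025 and 1.026 against 1.023 and 1.025. The part of this in the changed calls was not tested. Upper-quartile rescaling raised the median log2 fold change of all genes from 0.15 to 0.39 over the 5 lines and gave other splits of the members. It raised the share of all genes called higher and lowered the share called lower in every line. In YCCEL1 it gave 6 members higher (25.8% of all genes) and 0 lower (1.19%), in SNU719 7 higher (25.8%) and 2 lower (2.07%), and in AGS 5 higher (27.7%) and 5 lower (3.78%). It gave 1 higher (7.87%) and 2 lower (0.728%) in SNU16, 1 higher (38.1%) and 2 lower (1.18%) over the 5 lines, and 0 higher (22%) and 10 lower (4.49%) in HGC27. Of the calls over the 5 lines, DDIT4 (log2 fold change -0.94, SE 0.34, adjusted p = 0.049) was lost without any 1 of the SNU16, HGC27 or AGS libraries (adjusted p 0.063 to 0.098), with the replicate block (0.12), under upper-quartile rescaling (0.16) and with pseudocount 5, no filter, robust eBayes or no trend (0.05 to 0.074), while TRIB3 (adjusted p = 0.075) passed without any 1 HGC27 library (0.032 to 0.042) and under that rescaling (0.034). SESN2 over the 5 lines (log2 fold change -0.44, SE 0.13, adjusted p = 0.019) was lost with the replicate block (0.067) and that rescaling (0.47), and PSAT1 (log2 fold change -0.98, SE 0.17, adjusted p = 0.0005) was kept in both.

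**Figure D2:**
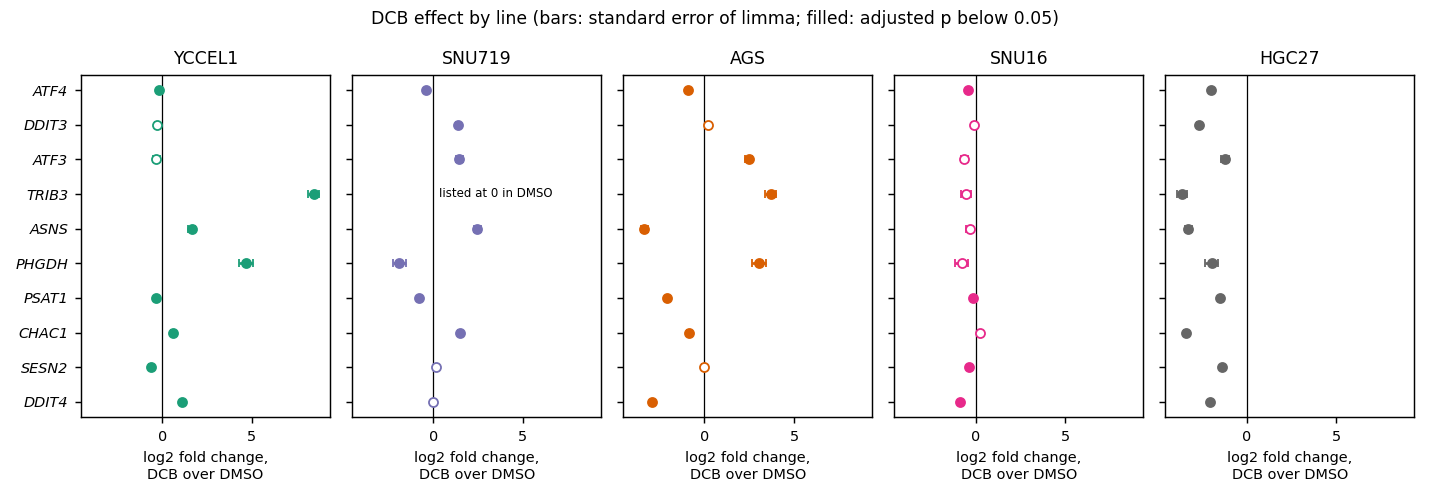
Log2 fold change of DCB over DMSO on the log2(value + 1) scale for each gene (rows) and line (panels), with the standard error of limma as bars and filled points for an adjusted p below 0.05. All 10 points are filled and left of 0 in HGC27, the points lie on both sides of 0 in YCCEL1, SNU719 and AGS, and no fold is drawn for TRIB3 in SNU719.

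The difference in response among lines was itself tested. All 10 genes had a line-by-treatment interaction (background 34.2% of genes), with adjusted p between 8.1e-12 for DDIT4 and 4.6e-06 for SESN2. Set against the mean of the other 4 lines, the response of HGC27 was lower for all 10 (background 12.5%), at between -0.66 for PSAT1 and -3.74 for CHAC1 on the log2 scale among the 9 genes other than TRIB3. In AGS the response was higher for 5 (background 9.41%) and lower for 5 (background 6.31%), from -3.47 (SE 0.21) for ASNS to 2.66 (SE 0.22) for ATF3 among the genes well above 0 in untreated AGS. The ATF4 difference of AGS (-0.17) was lost under upper-quartile rescaling (adjusted p = 0.085). In SNU719 it was higher for 9 (background 6.2%) and lower for PHGDH (background 6.1%). In YCCEL1 it was higher for 7 (background 7.52%) and lower for ATF3 (background 5.54%), and the ATF3 call was lost without YCCEL1 DMSO replicate 2 or either YCCEL1 DCB library (adjusted p 0.07 to 0.15). SNU16 had 3 higher (background 2.79%) and 3 lower (background 5.47%), of which PHGDH was lost without any 1 SNU16 library (0.065 to 0.097).

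The mean response of the EBV+ lines was higher than that of the EBV- lines for 9 of the 10 genes (background 10.5%). A higher response was not always a rise. ASNS, CHAC1 and TRIB3 rose in both EBV+ lines, and DDIT4 in YCCEL1 alone as deposited. ATF4 (-0.18 in YCCEL1 and -0.39 in SNU719) and PSAT1 (-0.35 and -0.78) fell in both. DDIT3 was at -0.29 in YCCEL1, which did not pass, and 1.35 in SNU719. SESN2 was at -0.64 in YCCEL1 and 0.13 in SNU719, the second of which did not pass. ASNS differed by 4.36 (SE 0.17) on the log2 scale, DDIT4 by 2.48 (SE 0.057), CHAC1 by 2.35 (SE 0.11) and DDIT3 by 1.37 (SE 0.094). The SESN2 difference (0.31) was lost without the trend (adjusted p = 0.055). ATF3 was the exception at 0.34 (SE 0.18, adjusted p = 0.23), and AGS, an EBV- line, had the largest rise of the 5. The PHGDH difference (1.27, SE 0.34, adjusted p = 0.017) was lost without YCCEL1 DMSO replicate 1 or YCCEL1 DCB replicate 1 (0.051 and 0.052) and fell to 0.62 with 5 added to each value (0.059), and it averages a rise in YCCEL1 with a fall in SNU719. Between CIMP+ and CIMP- lines the response was higher for 9 (background 12.8%) and lower for PSAT1 (background 8.94%), at -0.23 (SE 0.037), a call lost under upper-quartile rescaling (adjusted p = 0.12) and without the trend (0.077).

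HGC27 is 1 of 3 EBV- lines and 1 of 2 CIMP- lines, so both contrasts were repeated without it, a choice made after seeing the data. The EBV+ response was then higher for 7 genes (background 7.63%), with DDIT4 at 2.44, ASNS at 3.88, CHAC1 at 1.33, DDIT3 at 0.46 and ATF4 at 0.39. The calls for PHGDH (0.24, adjusted p = 0.74) and SESN2 (-0.074, adjusted p = 0.65) were lost. The CIMP+ response, then set against SNU16 alone, was higher for 5 genes (background 7.01%) and lower for PSAT1 (-0.90, background 3.74%). The 5 were TRIB3, PHGDH (2.72), ATF3 (1.82), DDIT3 (0.49) and DDIT4 (0.24). The calls for ASNS (0.58, adjusted p = 0.12), CHAC1 (0.13, adjusted p = 0.64), SESN2 (0.16, adjusted p = 0.38) and ATF4 (-0.075, adjusted p = 0.24) were lost.

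**Figure D3:**
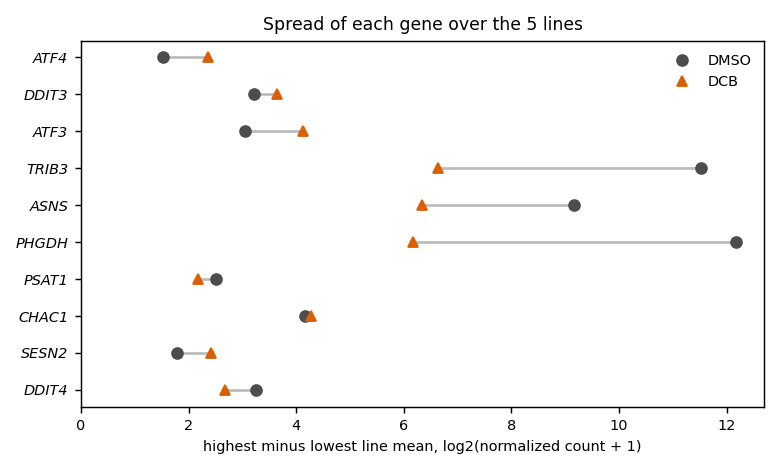
Highest minus lowest of the 5 line means, in log2(normalized count + 1), for each gene with DMSO (grey circles) and DCB (orange triangles). The distance shortens with DCB for 5 genes, most for PHGDH, TRIB3 and ASNS, and lengthens for the other five.

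With DCB the 5 line means lay closer together for the 3 genes that had the widest range before treatment. The range of the 5 line means fell from 12.2 to 6.18 log2 units for PHGDH, from 11.5 to 6.64 for TRIB3 and from 9.15 to 6.34 for ASNS, ranges that depend on the value of 1 added where a line is near 0. DDIT4 and PSAT1 also had a smaller range with DCB, and the other 5 genes a larger one. These ranges were not tested.

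The wider pathway was described by lists of its other genes, whose counts stand against the same shares of all genes as those of the members. The 10 amino acid transporters were mostly lower with DCB, with all 10 lower in AGS (median log2 fold change -1.11) and in HGC27 (-1.60), 4 in SNU16, 6 in SNU719 and 6 lower with 1 higher in YCCEL1. Under upper-quartile rescaling these were 8 lower in AGS, 10 in HGC27 and 1 in SNU16, but 3 lower and 5 higher in SNU719 and 2 lower and 3 higher in YCCEL1. SLC7A11, the cystine carrier, went from 943 ± 0.436 to 64.6 ± 19.2 in AGS (log2 fold change -3.88) and from 1425 ± 8.96 to 396 ± 7.82 in HGC27 (-1.84), and in SNU719 it was 572 ± 15.9 and 641 ± 65.5 and did not pass as deposited. SLC7A1, the arginine and lysine carrier, was lower in all 5 lines, from -0.27 in SNU16, a call that ended under that rescaling, to -1.84 in HGC27. SLC7A5, the leucine carrier, was lower in 4 lines, although in SNU719 its direction turned (from -0.35 to 0.036) under that rescaling, and it was at 0.056 in YCCEL1 and did not pass.

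The 13 genes for cytosolic tRNA synthetases and exportin-t, which charge and export tRNA, included 12 that were lower in AGS (median -0.90) and 12 in HGC27 (-1.02), 4 in SNU16, 6 in YCCEL1 and 4 lower with 1 higher in SNU719. Under upper-quartile rescaling 11 were lower in AGS and 9 in HGC27, and the splits became 2 lower and 1 higher in SNU16, 1 and 2 in YCCEL1 and 4 higher in SNU719. GARS1, for glycine, was lower in all 5 lines as deposited, from -0.17 in YCCEL1 to -1.40 in HGC27, but at 0.21 in YCCEL1, 0.12 in SNU719 and 0.0088 in SNU16 after rescaling. CARS1, for cysteine, fell in HGC27 (-1.56) and AGS (-0.84) and rose in SNU719 (0.34), the line in which ASNS, CHAC1 and DDIT3 rose too.

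Of the 13 other genes of serine, one-carbon and amino acid synthesis, 9 were lower and 2 higher in AGS and in HGC27, against 4 lower in SNU16, 2 higher and 3 lower in SNU719 and 4 and 3 in YCCEL1. Of all genes, 18.5% were higher in AGS, 14.7% in HGC27 and 13.5% in SNU719, near the shares of this list that were higher there. Upper-quartile rescaling gave 2 higher and 7 lower in AGS, 2 and 6 in HGC27, 1 lower in SNU16, and 5 and 2 in SNU719 and 6 and 2 in YCCEL1. The mitochondrial enzymes MTHFD2 and SHMT2 were lower in every line as deposited, MTHFD2 from -0.24 in SNU16 (-0.043, adjusted p = 0.77, under that rescaling) to -1.56 in AGS and SHMT2 from -0.58 in SNU16 to -1.50 in AGS. GPT2, which makes alanine, fell in AGS (-1.94) and HGC27 (-2.46) and passed in no other line as deposited. CBS, of the transsulfuration pathway, went against the list, with means of 12.4 ± 12.4 and 149 ± 5.99 in AGS and 0.313 ± 0.442 and 172 ± 15.8 in YCCEL1, and it rose in every line except SNU16.

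**Figure D4:**
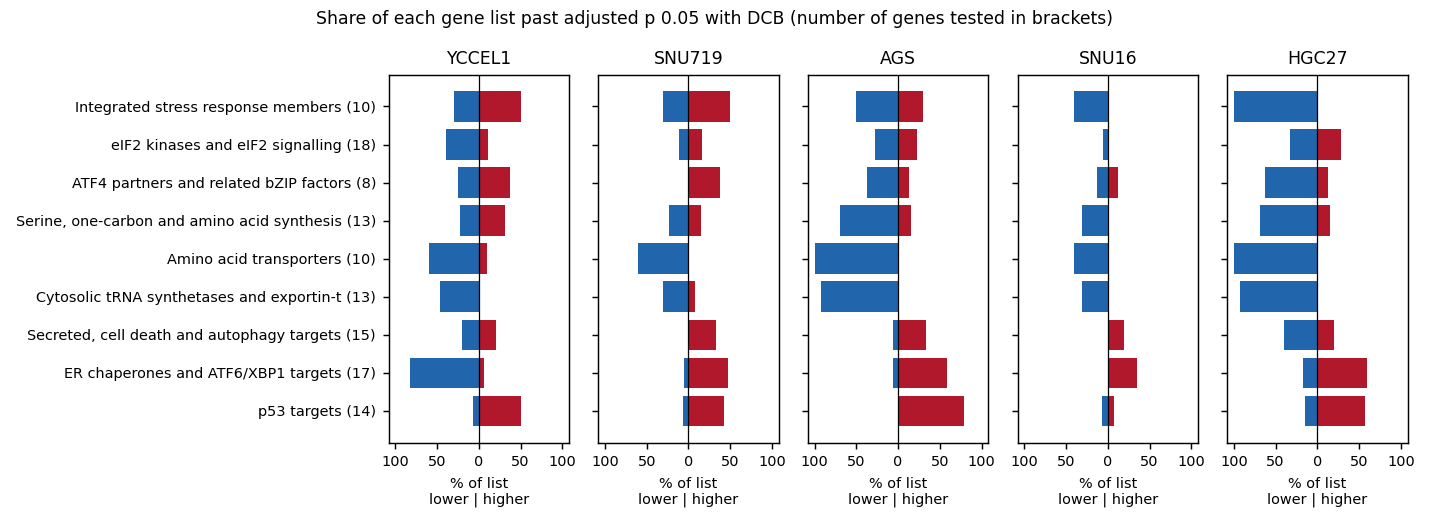
Share of each gene list past an adjusted p of 0.05 with DCB in each line, with red bars to the right for higher, blue bars to the left for lower and the number of genes tested in brackets. The blue bars of the transporters and tRNA synthetases stand for 10 of 10 and 12 of 13 genes in AGS and in HGC27, and the chaperone bar is mostly blue in YCCEL1 and mostly red in the other lines.

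Of 18 genes for eIF2 kinases and eIF2 signalling, 4 were higher and 5 lower in AGS, 5 and 6 in HGC27, 3 and 2 in SNU719 and 2 and 7 in YCCEL1, with 1 lower in SNU16. Over all genes 18.5% were higher and 9.13% lower in AGS and 13.5% and 7.64% in SNU719, so the shares of this list that were higher in these lines lie near those of all genes. Upper-quartile rescaling turned these to 7 and 1 in AGS, 8 and 2 in HGC27, 7 higher in SNU719, 3 and 3 in YCCEL1 and 1 higher in SNU16. PPP1R15A (GADD34), the stress-induced subunit that removes the eIF2 phosphate, fell in HGC27 from 421 ± 7.30 to 165 ± 13.5 (-1.34) and in YCCEL1 (-0.65) and rose in SNU719 (0.44) and AGS (0.31). DELE1, which relays mitochondrial stress, was lower in all 5 lines as deposited, least in YCCEL1 (-0.41) and most in HGC27, where it went from 636 ± 33.0 to 317 ± 13.4. Under upper-quartile rescaling the DELE1 calls ended in YCCEL1 (-0.027), SNU719 (-0.13) and SNU16 (-0.37). EIF2AK4 (GCN2), the amino acid sensor, was higher in 4 lines and at 0.10 in SNU16. Its call in SNU719 (limma adjusted p = 0.0497) ended under median-of-ratios rescaling (0.051). Of 8 ATF4 partners, 5 were lower and 1 higher in HGC27 and 3 lower and 1 higher in AGS. The shares higher in these lines lie near those of all genes (14.7% and 18.5%). In SNU719 3 were higher and 0 lower, in YCCEL1 3 and 2 and in SNU16 1 and 1. Upper-quartile rescaling gave 4 lower and 2 higher in HGC27 and 3 and 3 in AGS. It gave 7, 3 and 1 higher with 0 lower in SNU719, YCCEL1 and SNU16. CEBPG, a C/EBP partner of ATF4, fell in HGC27 from 2998 ± 186 to 590.2 ± 41.4 (-2.34) and in AGS (-1.20). ATF5, a mitochondrial stress factor, rose instead in SNU16 from 547 ± 26.6 to 2432 ± 83.0 (2.15) and in YCCEL1 (1.40).

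Among 15 secreted, cell death and autophagy targets, HGC27 had 3 higher and 6 lower and AGS 5 higher and 1 lower. SNU719 had 5 higher and 0 lower, YCCEL1 3 and 3 and SNU16 3 and 0. The shares higher in HGC27 and YCCEL1 and lower in AGS lie near those of all genes (14.7%, 14.6% and 9.13%). Upper-quartile rescaling gave 4 higher and 3 lower in HGC27 and 10 and 1 in AGS. It gave 9, 5 and 3 higher with 0 lower in SNU719, YCCEL1 and SNU16. ADM2, a peptide hormone induced by ATF4, fell in HGC27 from 818 ± 28.3 to 53.2 ± 5.92 (-3.92) and rose in YCCEL1 from 0.444 ± 0.628 to 113 ± 16.6, the same split as TRIB3 in those lines. MAP1LC3B, an autophagosome protein, rose as deposited in every line except YCCEL1 (up to 1.24 in SNU719). Beside the falls in HGC27, 4 of its 5 epithelial markers rose, their sum going from 115 and 173 to 609 and 485, while the fibroblast marker sum was 44672 and 45241 before and 45337 and 43048 after. The part of these changes in the result was not tested. In AGS 2 of 5 epithelial markers rose, and in the other lines none of the 5 passed. Of the 4 fibroblast markers, 3 rose in YCCEL1, where their sum went from 6.93 and 27.8 to 84.6 and 82.9, and 1 rose in SNU719 (41.7 and 26.0 to 122.8 and 97.0). In AGS COL1A1 alone rose, and the sum went from 283 and 299 to 1965 and 1909. None of the 4 passed in SNU16 or HGC27. Their part in the members' changes was not tested.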

How the data were processed

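The authors' table holds 60232 genes in 20 libraries, of which 20976 genes are at 0 throughout. Its values are recorded as signal: as deposited by the authors they are normalized estimated counts, and between 37.3% and 42.5% of low values per library (under 300 steps) are whole multiples of a library's step, so whole reads could not be recovered and no count test was run. Per the labels, poly(A) RNA libraries were made, while the paper describes a 3' kit. The submitters' processing notes name the counter featureCounts (1.5.1), DESeq2 (1.14.1), the aligner STAR (2.5.2b) and the build GRCh37, and the paper names GRCh38. Start and end were identical in GENCODE v44 (GRCh38) for 92.6% of the 60064 genes found there. Totals per library run from 7764407 to 9321014, corresponding to about 7101709 to 10731382 read equivalents, and 15 housekeeping genes were above 0 in every library (lowest 65.4). Depth in reads is otherwise not given, so no counting interval is printed.

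The 27350 genes with a sum above 10 were tested in R 4.3.3 by limma (version 3.58.1), using moderated statistics with a mean-variance trend on log2(value + 1). A model of 10 line-treatment groups gave each line's effect, the line-by-treatment F test and differences of responses, and a fit with terms for line and treatment gave the effect over 5 lines. Folds are on the log2(value + 1) scale and understate changes of low genes. No fold is given against a group listed at 0, nor over lines that include it. Adjusted p-values (Benjamini-Hochberg) cover all genes tested. Scripts were tested on simulated data. CIMP status came from the paper. Tables used Python 3.11.15 with pandas 2.3.3 and numpy 2.4.6, and figures matplotlib 3.10.9.

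The 10 members, the wider lists and the tests were chosen with earlier results of these data known. Named genes were the 10 members, up to 4 genes per wider list with the smallest adjusted p over the 5 lines and up to 4 in the interaction, the cell type markers, and the 5 other genes with the highest correlation to the members' mean profile among genes with a mean of at least 50. Alternatives were pseudocounts of 0.5 and 5, no filter, a sum above 200, median-of-ratios and upper-quartile rescaling, robust eBayes, no trend, a replicate block, each library left out, each line alone, and the mean of the 5 line contrasts. The EBV and CIMP contrasts without HGC27 were added after seeing the data. Reads of the viral genome and the methylation data were not analysed here.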

Additional observations from a re-analysis of the deposited data

Results flagged for a closer look

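All 10 genes differed among the 5 lines in their response to DCB (line-by-treatment F test of limma over 5 lines and 20 libraries, with adjusted p-values over all genes). The adjusted p was 8.1e-12 for DDIT4, which rose in YCCEL1 and fell in AGS, HGC27 and SNU16, and 2e-11 for ATF4, whose log2 fold change ran from -0.18 in YCCEL1 to -2.01 in HGC27. It was 8.5e-11 for PSAT1, from -0.17 in SNU16 to -2.09 in AGS. CHAC1 (9.2e-10) and ASNS (3e-09) rose in YCCEL1 and SNU719 and fell in AGS and HGC27. TRIB3 (9.4e-10) rose in YCCEL1, SNU719 and AGS and fell in HGC27. DDIT3 (3e-09) rose in SNU719 and fell in HGC27. PHGDH (7.5e-07) rose in YCCEL1 and AGS and fell in SNU719 and HGC27. ATF3 (1.3e-06) rose in AGS and SNU719 and fell in HGC27. SESN2 (4.6e-06) fell in HGC27, YCCEL1 and SNU16.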

How the results depend on the processing

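The counts of called members were within 1.5 times of the reported ones in 489 repeats and not in 9. Over the 5 lines the count of 4 became 2 (0 higher, 2 lower) with the replicate block and 10 (3 higher, 7 lower) as the mean of the 5 line effects. In SNU16 the count of 4 became 2 without the trend and 2 with the replicate block, and between 2 and 5 without single libraries. With HGC27 left out of the contrast, chosen after seeing the data, the count between CIMP+ and CIMP- lines went from 10 to 6 (5 higher, 1 lower), ATF4 there turned to -0.075, and SESN2 (-0.074) and ATF3 (-0.37) turned between EBV+ and EBV- lines. The replicate numbers did not pair the samples: deviations of same-numbered DMSO and DCB libraries correlated at between -0.0236 and 0.0354 in the 5 lines. The block therefore shares only a number. No block could be fitted for comparisons among untreated lines, in which no pair spans lines.

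Upper-quartile rescaling reversed DDIT3 over the 5 lines (0.023), ATF4 (0.20), DDIT3 (0.093), PSAT1 (0.034) and ATF3 (0.043) in YCCEL1, SESN2 in AGS (0.30, adjusted p = 0.025 in limma), DDIT3 (0.13) and PSAT1 (0.025) in SNU16, ASNS between untreated AGS and HGC27 (-0.050) and XBP1 over the 5 lines (0.0042). Median-of-ratios rescaling gave -0.00020 for DDIT4 in SNU719. Without single libraries, DDIT4 in SNU719 ran from -0.0092 to 0.014, SESN2 in AGS from -0.11 to 0.061, DDIT3 in SNU16 from -0.14 to 0.0040, ATF3 between untreated YCCEL1 and SNU16 from -0.054 to 0.35, and SESN2 between untreated AGS and SNU16 from -0.047 to 0.034. None of these effects passed the threshold as reported except ATF4 and PSAT1 in YCCEL1, PSAT1 in SNU16, XBP1, and, in the contrasts without HGC27, ATF4 and SESN2. Upper-quartile rescaling also gained calls for DDIT4 and SESN2 in SNU719 (0.38 and 0.51), DDIT3 in AGS (0.54) and CHAC1 in SNU16 (0.46). The cause was not tested. Among all other single-gene repeats 7338 kept direction and call, 139 lost the call and 35 gained it.

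With 2 libraries per group, 5 lines and no counts of reads, differences between EBV or CIMP groups compare these lines only, and levels near 0 are limited by the value added before the log.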

Other observations

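The 17 endoplasmic reticulum chaperones and other ATF6 or XBP1 targets, which belong to the neighbouring unfolded protein response, were lower in YCCEL1 and mostly higher elsewhere where they passed the test. In YCCEL1 14 were lower and 1 higher (median log2 fold change -0.61 against 0.094 over all genes), while AGS and HGC27 had 10 higher each with 1 and 3 lower, SNU719 8 higher and 1 lower, and SNU16 6 higher. Upper-quartile rescaling gave 9 lower and 2 higher in YCCEL1, and 12, 11, 14 and 6 higher in AGS, HGC27, SNU719 and SNU16. HSPA5 (BiP), the main chaperone of the compartment, went from 14756 ± 2.11 (SD, n = 2) to 6643 ± 54.7 in YCCEL1 (-1.15) and from 2855 ± 85.4 to 5026 ± 71.7 in HGC27 (0.82). PDIA4, a disulfide isomerase, rose in HGC27 by 1.40 and fell in YCCEL1 (-0.53). HGC27 is thus the line in which all 10 members fell and most chaperones rose.

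Of 14 p53 targets, 11 rose in AGS, 8 rose and 2 fell in HGC27, 7 and 1 in YCCEL1, 6 and 1 in SNU719 and 1 and 1 in SNU16. Upper-quartile rescaling gave 13, 9, 9, 11 and 2 higher, with 1 lower in each line except AGS and SNU16. CDKN1A (p21), the cell cycle inhibitor, was higher in every line, from 0.44 in SNU16 to 2.04 in HGC27. MDM2, the p53 ligase, rose in AGS (1.67), SNU719 (0.89) and YCCEL1 (0.37) and did not pass in HGC27 (-0.16).

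The 5 genes outside the list whose values over the 20 libraries were most like the members' mean profile, among 12239 genes ranked, were EIF1 (Pearson r 0.923), TIGD5 (0.887), GPT2 (0.886), KRT10 (0.882) and EIF4EBP1 (0.878). The points share lines and libraries, so this is a description. EIF1, a factor of start codon selection, had a mean of 9187 in untreated HGC27 and 2940.5 after DCB, and EIF4EBP1, a translation repressor, 977 and 336. Among the members themselves, SESN2 and DDIT3 had the highest correlation over the 20 libraries (0.862) and SESN2 and PHGDH the lowest (-0.667).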
